A study of Mus musculus with 2 samples.

Results

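Wnt ligand, Frizzled receptor and secreted antagonist genes were followed in DNase-seq data of the mouse hippocampus. The set was taken by gene symbol alone, as every protein-coding gene of the GENCODE M21 annotation named Wnt, Fzd, Sfrp or Dkk plus a number. It holds 37 of 21938 protein-coding genes, namely 19 Wnt ligands, 10 Frizzled receptors, 4 secreted Frizzled-related proteins (Sfrp1, Sfrp2, Sfrp4 and Sfrp5) and 4 Dickkopf proteins (Dkk1 to Dkk4). In this assay the nuclease DNase I cuts open chromatin, and stretches where cuts pile up are called as peaks. The labels give the tissue as a layer of hippocampus of B6CASTF1/J females (an F1 cross) at 8 to 10 months of age. Both libraries, biological replicates 1 and 2, belong to 1 group and pool 2 biosamples each, so the values below describe a single tissue with no contrast and no test. In tissue made of many cell types, an opening in fewer cells and a weaker opening in all cells cannot be told apart.

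Wnt proteins are secreted, lipid-modified signals that bind Frizzled receptors, which cross the cell membrane several times, together with coreceptors such as Lrp5 and Lrp6. In the canonical branch this stabilises beta-catenin, which acts with TCF/LEF factors on target genes, while other branches steer cell polarity and calcium signals. Sfrp proteins resemble the ligand-binding part of Frizzled and can bind Wnts outside the cell, and several Dickkopf proteins block Lrp5 and Lrp6. In the hippocampus the pathway is known for its part in forming the structure in the embryo, in adult neurogenesis of the dentate gyrus and in synapse assembly.

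Receptor genes mostly had an open promoter and ligand genes mostly did not. The promoter window reached 500 bp to both sides of every annotated start of a transcript, and it was called open when a peak touched it in both libraries. By this rule 13 of the 37 genes were open (35.1%), against 59.2% of all protein-coding genes. The 13 were 8 of 10 Frizzled genes (all but Fzd6 and Fzd10), 3 of 4 Sfrp genes (all but Sfrp5), 2 of 19 Wnt genes (Wnt7a and Wnt16) and 0 of 4 Dkk genes. Taken alone, replicate 1 called 15 of the 37 genes open, against 60.4% of all genes. Replicate 2 called 13 of the 37, against 62.4% of all genes. With the stricter of the deposited peak lists 10 of the 37 genes were open, against 53.3% of all genes. The 3 genes lost there were Wnt16, Sfrp2 and Sfrp4, and the 8 Frizzled genes were open under both lists.

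The libraries were alike in peak width and differed in number of peaks. Replicate 1 had 98902 peaks with a median signal of 0.60, and replicate 2 had 130199 peaks with a median signal of 0.58. The signal is the authors' peak height, and its values were whole multiples of 0.00606 in replicate 1 and of 0.00795 in replicate 2. The sources used here do not name the scale, so the depth behind a value is unknown and no counting interval is given. Of the marker genes, 4 of 4 neuronal and 4 of 4 hippocampal excitatory genes had an open promoter, among them Prox1, the factor of dentate granule cells, at 0.939 in replicate 1 and 1.10 in replicate 2. Of other cell types, 2 of 3 astrocyte, 2 of 3 oligodendrocyte, 1 of 3 microglial, 1 of 3 endothelial, 1 of 5 choroid plexus and ependymal and 1 of 4 meningeal fibroblast genes were open. In the choroid plexus and ependymal list the open gene was Foxj1, at 3.77 in replicate 1 and 4.19 in replicate 2, above both values of Prox1. The other genes of that list, Ttr, Kl, Clic6 and Folr1, had a promoter peak in neither library, and the liver and muscle genes (0 of 2 each) had none. The part of any cell type in the results below was not tested.

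Fzd7, Fzd1 and Fzd4 had the strongest promoter peaks of the 37 genes. Fzd7 (chr1:59482424-59486955 on mm10, the assembly of all positions here) reached 2.84 in replicate 1 and 3.18 in replicate 2, with a mean of 3.01 ± 0.24 (SD, n = 2). It was the 1 member above the median of all open genes, 2.30, and stood at their percentile 61.8. Its peak lay at the same bases in both libraries, chr1:59481881-59482120, with the midpoint 423 bp upstream of the transcript start. Fzd1 (chr5:4753839-4758035) reached 2.13 and 2.29 in replicates 1 and 2, a mean of 2.21 ± 0.12 (n = 2). The promoter sequences of both are printed to show the bases that the strongest receptor peaks cover. They are read 5′ to 3′ on the strand of the gene from the mm10 reference, over the bases shared by the peaks of the libraries, and capitals mark bases inside footprints of both libraries. Footprints are short stretches with few cuts inside an open site, and they can mark a bound protein.
Fzd7 promoter, chr1:59481881-59482120, plus strand: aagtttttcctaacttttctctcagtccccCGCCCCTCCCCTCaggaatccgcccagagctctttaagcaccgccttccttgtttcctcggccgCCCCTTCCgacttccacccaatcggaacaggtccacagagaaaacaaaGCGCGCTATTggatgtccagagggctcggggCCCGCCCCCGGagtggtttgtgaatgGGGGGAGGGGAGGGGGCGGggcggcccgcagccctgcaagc
Fzd1 promoter, chr5:4757981-4758240, minus strand: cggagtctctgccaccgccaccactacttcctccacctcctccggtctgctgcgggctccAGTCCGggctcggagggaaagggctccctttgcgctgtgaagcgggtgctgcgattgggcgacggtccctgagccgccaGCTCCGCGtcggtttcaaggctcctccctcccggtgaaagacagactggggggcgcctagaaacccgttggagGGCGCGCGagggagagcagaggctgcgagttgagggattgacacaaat
In the Fzd7 sequence 61 of 240 bases lay in footprints of both libraries, and in the Fzd1 sequence 22 of 260 bases did. The Fzd7 stretch had 62.9% GC and 15 CpG dinucleotides, and the Fzd1 stretch had 65.8% GC and 22.

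The other open Frizzled promoters had intermediate signals. Fzd4 (chr7:89404355-89413134), the receptor of Norrin in blood vessels, reached 1.76 in replicate 1 and 2.35 in replicate 2. Its peak also lay in the promoter window of Tmem135, a gene for a membrane protein, so the signal cannot be assigned to either gene alone. Fzd8 reached 1.40 and 1.98 in replicates 1 and 2. Fzd3 (chr14:65192449-65262463), which guides growing axons, had 1.56 and 1.27. Fzd2 (chr11:102604396-102608058) had 1.45 and 1.22. Those 2 receptors had the lower value in replicate 2, whereas the other 6 open Frizzled genes had the higher value there. Fzd5 (chr1:64730558-64737751) followed at 0.969 in replicate 1 and 1.26 in replicate 2. Fzd9 (chr5:135248938-135251230), a receptor known from neural progenitors of the hippocampus, had 0.842 and 1.31. Both values of Fzd7 exceeded all values of the other receptors. In the order of the means (Fzd7, Fzd1, Fzd4, Fzd8, Fzd3, Fzd2, Fzd5, Fzd9), the values of every neighbouring pair after Fzd7 overlapped.

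Among the ligands, Wnt7a had the strongest promoter site, and it lay off the annotated start. Wnt7a (chr6:91363981-91411363), a ligand known for building synapses and for growth of brain vessels, had a peak of 1.33 in replicate 1 and 1.65 in replicate 2, a mean of 1.49 ± 0.22 (SD, n = 2). The midpoint of that peak was 538 bp upstream of the 5′ end, just beyond the window that the peak touched, at the annotated gene Gm30437, whose product is not established. Counted by midpoint, Wnt7a would not be open. Replicate 2 alone also had a peak at the start itself, of 0.429, with its midpoint 142 bp downstream. Wnt16 (chr6:22288227-22298522), a ligand best known from bone, had 0.394 and 0.437 in replicates 1 and 2, at percentile 2.74 of all open genes.
Wnt7a promoter site, chr6:91411801-91412000, minus strand: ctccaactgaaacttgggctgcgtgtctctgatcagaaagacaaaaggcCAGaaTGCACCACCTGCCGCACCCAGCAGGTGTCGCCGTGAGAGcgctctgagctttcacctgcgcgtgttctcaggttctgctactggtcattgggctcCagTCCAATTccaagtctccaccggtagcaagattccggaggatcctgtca
Wnt16 promoter site, chr6:22288041-22288220, plus strand: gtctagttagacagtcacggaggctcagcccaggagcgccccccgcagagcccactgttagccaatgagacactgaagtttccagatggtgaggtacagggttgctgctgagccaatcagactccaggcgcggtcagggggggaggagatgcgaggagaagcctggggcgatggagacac
These sequences are the open promoter bases of the 2 ligands. In the Wnt7a site 50 of 200 bases lay in footprints of both libraries, most of them in a stretch in the first part of the printed run. In the Wnt16 site 0 of 180 bases did, with 0 bases in a footprint of replicate 1 and 7 in replicate 2.

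The open Sfrp promoters were weak. Sfrp1 (chr8:23411502-23449632) stood at 0.612 in replicate 1 and 0.708 in replicate 2, and Sfrp4 (chr13:19623104-19632994) had 0.679 and 0.565. Sfrp2 (chr3:83766321-83774316) had 0.291 and 0.294, the lowest of the 13, and its peaks did not overlap between the libraries. In replicate 1 the Sfrp2 peak was 374 bp upstream of the 5′ end and in replicate 2 it was 409 bp downstream. The Sfrp1 site is printed as the strongest Sfrp promoter by mean signal, and 0 of its 180 bases lay in footprints of both libraries. Replicate 1 listed 0 footprints in that peak and replicate 2 listed 3, so no base could be shared.
Sfrp1 promoter site, chr8:23411341-23411520, plus strand: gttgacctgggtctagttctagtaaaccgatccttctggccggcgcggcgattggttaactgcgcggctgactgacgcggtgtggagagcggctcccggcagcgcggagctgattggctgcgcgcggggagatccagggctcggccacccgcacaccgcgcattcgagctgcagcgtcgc
Over the 13 open members the median signal was 1.34, against 2.30 for all open genes, and 12 of the 13 lay below that median. The signal was higher in replicate 2 for 10 of the 13, against 9018 of all 12982 open genes. The median log2 ratio of replicate 2 to replicate 1 was 0.16 for the 13, against 0.14 over all open genes.

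**Figure D1:**
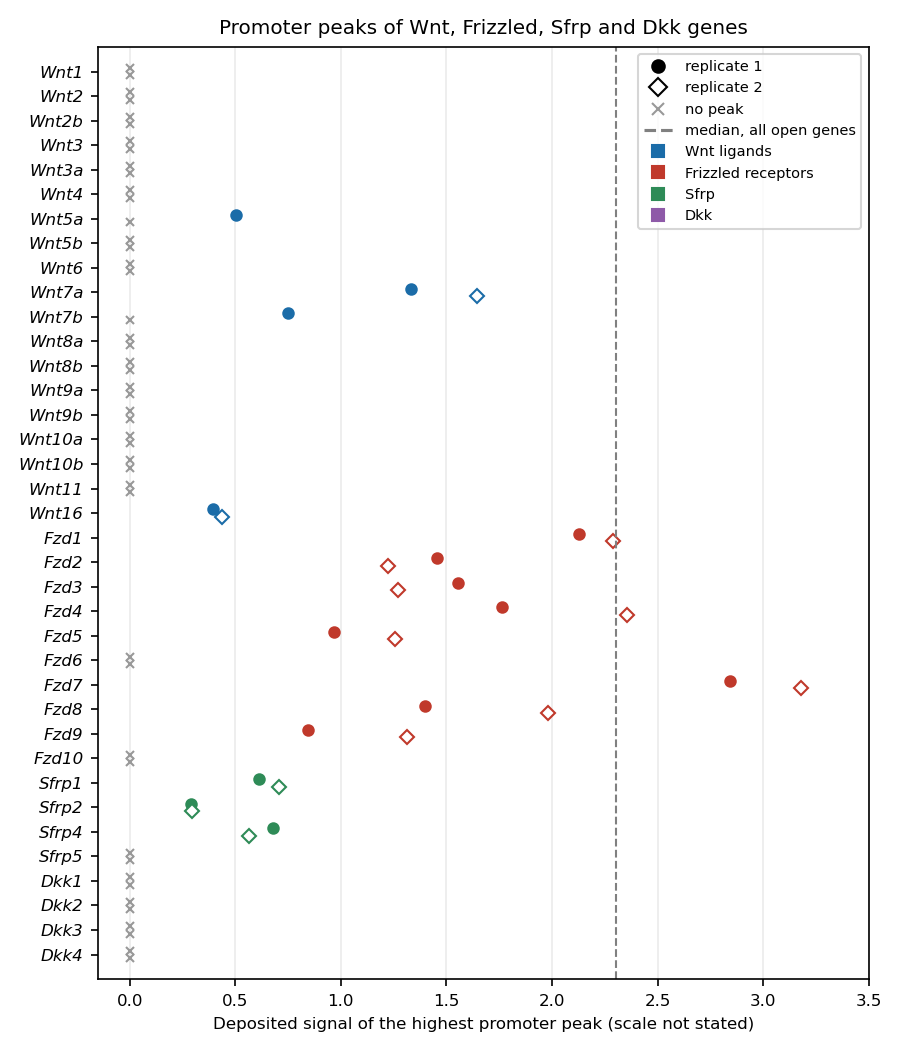
Deposited signal of the highest peak touching a promoter window (x axis, scale not stated) for each of the 37 genes (rows), in replicate 1 (filled circles) and replicate 2 (open diamonds). Grey crosses at 0 stand for no peak and the dashed line for the median of all open genes, 2.30. Both Fzd7 values lie right of it, and most Wnt rows and all Dkk rows have no peak.

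The genes with a promoter peak in a single library were 2 ligand genes, both in replicate 1, with peaks away from the first start. Wnt5a (chr14:28504750-28527448), a ligand of the noncanonical branches, had a peak of 0.503 near the start of a noncoding transcript 1150 bp downstream of the 5′ end. Wnt7b (chr15:85535437-85582473), which acts with Wnt7a on brain vessels and also on dendrites, had a peak of 0.751 near a transcript start 4403 bp downstream. Wnt7b had stronger sites close to its first start, but outside the window. A site 764 bp upstream of the 5′ end reached 1.31 in replicate 1 and 1.81 in replicate 2, and another 1238 bp upstream had 0.763 and 1.11. Dkk2 likewise had a site 1061 bp upstream with 0.776 and 0.851. With windows of 2000 bp Wnt5a, Wnt6, Wnt7b, Wnt11 and Dkk2 were open as well, so that 6 Wnt genes were open instead of 2. This made 18 of the 37 genes, against 63.5% of all genes with the same windows.

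At most of the closed promoters the deposited false discovery rate listed nothing, as at closed promoters in general. Of the 24 members not open in both libraries, 20 had no base with a rate below 0.05 in any of their promoter windows in either library (83.3%), against 86.4% of all genes not open in both. Of the 20, 14 were Wnt genes. The other members had short stretches, with 21 bases at Dkk3 in replicate 1 and 5 bases at Wnt5b in replicate 2. Wnt7b had 105 bases in replicate 1 and 42 in replicate 2, and Wnt5a had 85 in replicate 1 and 0 in replicate 2. The ligands with no listed base included Wnt3, which astrocytes release in the dentate gyrus, Wnt3a, which the embryo needs to form the hippocampus, and Wnt8b, a marker of the embryonic hippocampal field. They also included Wnt1, Wnt2, Wnt2b, Wnt4, Wnt6, Wnt8a, Wnt9a, Wnt9b, Wnt10a, Wnt10b and Wnt11. The others were Fzd6, Fzd10, Sfrp5, Dkk1, Dkk2 and Dkk4.

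Many closed ligand promoters were rich in CpG dinucleotides, a composition at which most promoters of this tissue were open. The ratio of observed to expected CpG was taken over 500 bp on either side of the 5′ end, and genes were split into quintiles of that ratio. The members fell in the upper 4 quintiles, with a median of 0.74 against 0.55 for all genes. In the lowest quintile 0 members were present, and 10.3% of all genes were open. In the second quintile 1 of 5 members was open, against 30.4% of all genes. In the third 2 of 11 members were open, against 71.9% of all genes. In the fourth 4 of 9 members were open, against 89.6% of all genes. In the highest 6 of 12 members were open, against 93.7% of all genes.

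Within the 2 highest quintiles the families differed in the same way as over the whole range. There 1 of 9 Wnt genes, 7 of 9 Frizzled genes and 2 of 3 Sfrp genes were open, against 91.6% of all genes, and no Dkk gene fell in these quintiles. The Frizzled share, 77.8%, was below that of all genes there, whereas over the whole range 80% of Frizzled genes were open, against 59.2%. The open Wnt gene was Wnt7a, which was not open when counted by peak midpoint. The 8 not open were Wnt2b, Wnt3a, Wnt4, Wnt5b, Wnt6, Wnt9a, Wnt9b and Wnt11, of which Wnt6 and Wnt11 were open with windows of 2000 bp. The median ratio was 0.81 for these 9 Wnt genes and 0.84 for the 9 Frizzled genes. Wnt5b had a ratio of 1.00 and Wnt9a of 0.997, and Fzd3, which was open, had 1.03. Wnt16 was open with a ratio of 0.351.

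**Figure D2:**
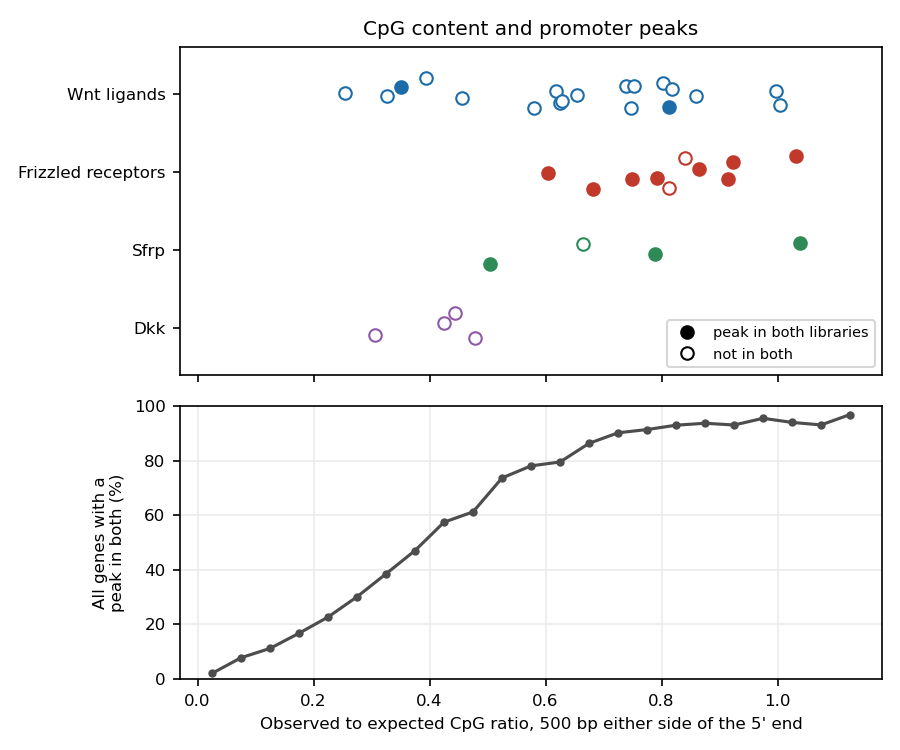
Upper panel, observed to expected CpG ratio (x axis) of each of the 37 genes by family, filled where the promoter had a peak in both libraries and hollow where it did not, with vertical offsets added for legibility. Lower panel, percent of all protein-coding genes with such a peak in bins of the same ratio with at least 20 genes. Hollow Wnt points extend to ratios above 0.8, where over 90% of all genes had a peak.

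Closed ligand genes still had open sites nearby. In the gene record plus 20 kb on each side, 35 of the 37 genes held a site found in both libraries, against 83.4% of all genes, and the exceptions were Fzd10 and Dkk4. With sites in any promoter window left out, 30 of the 37 genes held such a site, against 71.5% of all genes. By family this was 18 of 19 Wnt, 7 of 10 Frizzled, 2 of 4 Sfrp and 3 of 4 Dkk genes. Among members with closed promoters 21 of 24 held such a site (87.5%), against 54.2% of all genes with closed promoters. The loci of these members were also longer, with a median of 61.5 kb against 48.9 kb. They had a median of 4.43 peaks per 100 kb, against 3.05 for all genes with closed promoters. The median number of peaks was 3.5 per member, against 4.5 over all genes, and 5.73 peaks per 100 kb, against 6.48 over all genes. Flanks of neighbouring members overlap, so Wnt3a and Wnt9a, Wnt3 and Wnt9b, and Wnt6 and Wnt10a share sites.

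The place of the shared sites differed by family. Of 69 shared sites in Wnt loci, 2 lay in a member's own promoter, 4 in its exons, 18 in its introns, 18 upstream, 19 downstream and 8 in the promoter of another gene. A site held by neighbouring Wnt loci was counted once, by its place at a single gene. A site in an intron of Wnt6 was thus counted as upstream of Wnt10a. Of 22 shared sites in Frizzled loci, 10 lay in an own promoter, 4 in exons, 0 in introns, 3 upstream, 4 downstream and 1 in the promoter of another gene. The exonic sites were at Fzd1, Fzd7 and Fzd8, compact receptor genes. The median locus was 45.3 kb for Frizzled and 62.2 kb for Wnt genes. The gene records of Fzd1, Fzd7 and Fzd8 spanned 4197, 4532 and 5974 bp, whereas that of Fzd3 spanned 70015 bp and that of Wnt5b 111817 bp. Intron length was not compared between the families, so the counts by place do not compare how often introns were open. The Fzd7 exonic site lay 1607 bp downstream of the start, at 0.679 in replicate 1 and 1.15 in replicate 2. Of 8 shared sites in Dkk loci, 4 were intronic and 4 upstream, and Dkk3, a divergent Dickkopf, had its strongest site 13.8 kb upstream with 1.13 and 1.28. Dkk1, an Lrp5 and Lrp6 antagonist, had a single shared site 5.12 kb upstream, which was weak in replicate 1 (0.394) and stronger in replicate 2 (1.28).

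Wnt5b, Wnt7a and Wnt1 had the most peaks, though Wnt5b also had the longest locus, 151817 bp, and at 11.2 peaks per 100 kb it was less dense than Fzd1 (13.6), Wnt10a (13.3), Wnt7a (13.2) or Fzd8 (13.1). Wnt5b (chr6:119432531-119544347) had 16 peaks in replicate 1 and 18 in replicate 2, the most of any member, and 10 of its 13 shared sites lay outside promoters. The others lay in promoter windows of other genes, such as Adipor2 and Fbxl14, an F-box protein gene that lies inside the Wnt5b record. Its strongest shared site outside promoters was intronic, 22.6 kb downstream of the 5′ end, with 0.939 and 1.26. Wnt7a had 9 and 14 peaks, and 7 of its 8 shared sites lay outside promoters. Wnt1 (chr15:98789857-98793837), the founding mouse member of the family, had 10 and 8 peaks, 20.5 per 100 kb, the highest density of the 37. Its 7 shared sites all lay downstream of the Wnt1 record, and all but the nearest lay in Ddn, which encodes the postsynaptic protein dendrin, or Prkag1, which encodes an AMP-activated kinase subunit.

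**Figure D3:**
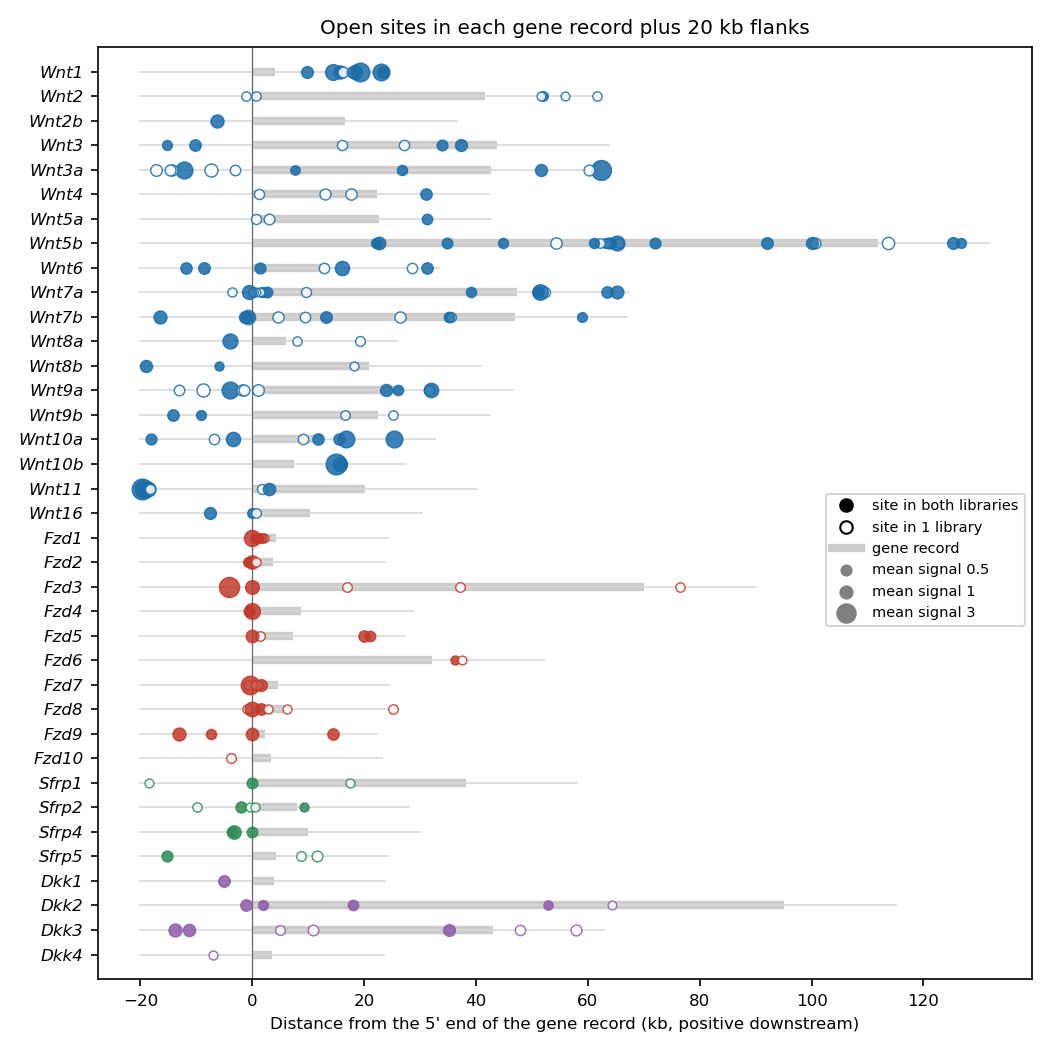
Open sites of each of the 37 genes (rows) by distance from the 5′ end of the gene record (x axis, kb, positive downstream), with the record as a thick grey bar and flanks of 20 kb as a thin line. Filled points are sites in both libraries, hollow points sites in 1 library, and point area grows with the mean signal. Frizzled sites gather at 0, and Wnt sites are spread over introns and flanks.

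The 10 strongest shared sites outside promoters all lay in Wnt loci, and 3 of the 10 overlapped a transfer RNA gene of RefSeq, 2 of them in both libraries. Wnt loci also held most of the 81 shared sites outside promoters. The strongest was 19.7 kb upstream of Wnt11 at chr7:98815261-98815580, at 4.17 in replicate 1 and 3.67 in replicate 2 (3.92 ± 0.35, SD, n = 2), and it overlapped n-TPtgg8 at 98815415 to 98815486. The next lay 19.3 kb upstream of Wnt11 at chr7:98815641-98815900, with 2.43 and 3.38, and overlapped n-TPagg7 at 98815676 to 98815747. A site 18.7 kb upstream of Wnt11, with 1.65 and 1.88, overlapped the noncoding gene Gm39054. A site 25.4 kb downstream of the Wnt10a start, at chr1:74816721-74817120, had 2.18 and 2.60 and overlapped n-TGgcc3 at 74816747 to 74816817 in replicate 2, whereas the replicate 1 peak began beyond that gene, at 74816841. Of the 81 shared sites outside promoters in the member loci 3 overlapped a transfer RNA gene, against 174 of 61688 such sites in the genome. These sites are named by the member whose flank holds them, and which gene they act on was not tested. The 2 strongest Wnt11 sites are printed to show where the transfer RNA genes lie among the footprints.
Wnt11 upstream site 1, chr7:98815261-98815520, plus strand: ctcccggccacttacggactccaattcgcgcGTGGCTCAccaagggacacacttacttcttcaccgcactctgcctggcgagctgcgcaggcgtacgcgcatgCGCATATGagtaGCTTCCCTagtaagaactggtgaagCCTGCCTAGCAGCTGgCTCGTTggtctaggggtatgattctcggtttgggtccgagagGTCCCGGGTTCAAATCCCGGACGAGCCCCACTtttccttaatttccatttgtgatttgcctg
Wnt11 upstream site 2, chr7:98815661-98815900, plus strand: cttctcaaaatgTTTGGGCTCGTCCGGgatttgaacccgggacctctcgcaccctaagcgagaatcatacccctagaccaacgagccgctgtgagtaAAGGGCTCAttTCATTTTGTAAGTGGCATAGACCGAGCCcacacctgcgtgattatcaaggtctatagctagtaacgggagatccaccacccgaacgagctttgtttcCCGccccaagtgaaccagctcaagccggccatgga
In the first, 77 of 260 bases lay in footprints of both libraries, the most of the printed sites, and in the second 55 of 240 did.

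The other strong sites lay between Wnt3a and Wnt9a, downstream of Wnt10a, Wnt1 and Wnt7a, and upstream of Wnt8a. Wnt3a and Wnt9a are neighbours that are transcribed away from each other, and a site between them at chr11:59302781-59303020 had 1.94 in replicate 1 and 2.93 in replicate 2. It lay 12.1 kb upstream of Wnt3a and 4.03 kb upstream of Wnt9a, both of which had closed promoters. The site 16.8 kb downstream of the Wnt10a start, at chr1:74808181-74808440, had 2.10 and 2.64. Sites inside Prkag1 (2.50 and 2.20) and Ddn (1.68 and 2.43) were those of the Wnt1 locus. The Wnt7a site, 51.4 kb downstream of the 5′ end and beyond the gene's end, had 2.06 and 1.88. The site 3.95 kb upstream of Wnt8a had 1.31 and 2.31. Over all 81 sites the median mean signal was 0.813, against 0.684 for all 61688 shared sites outside promoters.
Site between Wnt3a and Wnt9a, chr11:59302781-59303000, plus strand: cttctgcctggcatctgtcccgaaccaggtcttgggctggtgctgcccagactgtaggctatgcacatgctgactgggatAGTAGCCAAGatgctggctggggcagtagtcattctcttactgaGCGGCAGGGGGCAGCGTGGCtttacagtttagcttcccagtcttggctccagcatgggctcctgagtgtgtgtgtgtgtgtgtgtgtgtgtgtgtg
Site downstream of Wnt10a, chr1:74808201-74808420, plus strand: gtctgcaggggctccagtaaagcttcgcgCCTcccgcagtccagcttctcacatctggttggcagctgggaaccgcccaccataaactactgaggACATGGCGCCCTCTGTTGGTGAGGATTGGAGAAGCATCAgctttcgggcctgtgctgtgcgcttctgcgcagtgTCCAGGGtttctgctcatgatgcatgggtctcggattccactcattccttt
Site downstream of Wnt7a, chr6:91359841-91360000, plus strand: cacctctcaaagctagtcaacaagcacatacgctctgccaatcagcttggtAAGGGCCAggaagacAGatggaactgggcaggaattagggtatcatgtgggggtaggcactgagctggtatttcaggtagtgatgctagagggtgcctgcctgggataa
These were chosen as strong sites outside annotated genes. The longest run of capitals in the first holds AGGGGGC, and that in the second holds AGAGGGC on the other strand, both of which are searched as the core of the CTCF motif in the motif counts.

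Motif letters were counted on both strands in 300 bp around the centre of each site, as a description of the sequences. The TCF/LEF letters CTTTGAT and CTTTGAA, the nuclear end of the canonical branch, occurred in 0 of 13 member promoter sites, against 4.58% of all open promoter sites. Outside promoters they occurred in 4 of 81 member sites (4.94%), in the loci of Wnt4, Wnt5b, Wnt7a and Wnt9b, against 10.4% of all such sites, and 0 of these 4 matches lay in footprints of both libraries. The Sp/KLF letters GGGCGG occurred in 6 of 13 member promoter sites (46.2%), against 66.1% of all open promoter sites. All 6 were Frizzled promoters, and 15 of their 30 matches lay in footprints of both libraries. The NF-Y letters CCAAT, added after the sequences were seen, occurred in 9 of 13 (69.2%), against 39.9% of all. Of their 15 matches there, 3 lay in footprints of both libraries. Outside promoters CCAAT occurred in 20 of 81 member sites (24.7%), against 34.9% of all such sites. The CTCF core was searched as AGGGGGC and AGAGGGC, also added afterwards. Further forms searched were AGGTGGC and AGATGGC. Any of these occurred in 37 of 81 member sites outside promoters (45.7%), against 34.9% of all such sites. Of their 46 matches, 18 lay in footprints of both libraries. In the member promoter sites the CTCF letters occurred in 4 of 13 (30.8%), against 38.1% of all open promoter sites. The CTCF and Sp/KLF letters can overlap, as in the Fzd7 promoter.

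The remaining motifs were rare in the member promoters. The CRE motif occurred in 0 of 13 and the NFI motif in 0 of 13, against 3.96% and 0.0170% of all open promoter sites. TGACTCA of AP-1 occurred in 1 of 13 (Wnt16), against 3.10%, and the NRF1 motif in 1 of 13 (Fzd3), against 2.37%. The E-box CAGATG occurred in 2 of 13 (Fzd2 and Wnt16), against 11.4%, and CAGCTG in 1 of 13 (Sfrp2), against 17.3%. In member sites outside promoters CAGATG occurred in 33.3%, against 38.9% of all such sites, CAGCTG in 19.8%, against 26.6%, and GGGCGG in 27.2%, against 10.4%. A match is not a bound site.

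Among the families, footprints were densest in the Frizzled promoters. Their promoter peaks held 4.3 footprints per peak in replicate 1 and 3.6 in replicate 2, against 3.26 and 2.81 over all protein-coding genes. By share of peak bases covered the gap was smaller, with 18.2% and 16.9%, against 17.1% and 14.5% over all genes. The Wnt promoter peaks had 16.7% and 8.78% of bases covered. Differences in peak height between the families were not allowed for. Fzd8 (chr18:9212163-9218136) had 10 footprints in its promoter peak in replicate 1 and 2 in replicate 2, the largest gap between the libraries among the members, and its peak was 360 bp wide in replicate 1 and 180 bp in replicate 2. The Sfrp promoter peaks held 1 and 1.33 per peak, and 0 of their footprints overlapped between the libraries. Over all member promoter peaks 53 footprints were listed in replicate 1 and 46 in replicate 2. Of these 49.1% and 63.0% overlapped a footprint of the other library, against 55.4% and 62.9% over all genes. Peaks in the member loci numbered 134 in replicate 1 and 168 in replicate 2, and 84.3% and 66.1% overlapped a peak of the other library, against 81.6% and 62.0% of all peaks.

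Along the pathway, the cytoplasmic transducers were all open, and most other groups held both open and closed promoters. Of 58 other Wnt pathway genes 40 had an open promoter, against 59.2% of all genes. All 12 cytoplasmic transducers were open, led by Gsk3b, a kinase of the beta-catenin destruction complex, at 16.6 in replicate 1 and 10.8 in replicate 2, and Btrc, which marks beta-catenin for breakdown, at 11.1 and 9.36. The lowest of the 12, the scaffold gene Dvl3, had 1.39 and 1.69, within the range of the Frizzled genes. Most of the 12 fell by CpG ratio in the 2 highest quintiles, where 91.6% of all genes were open. The others fell in the third quintile, where 71.9% of all genes were open. Of the nuclear factors 5 of 8 were open, a share of 62.5%, led by Pygo2 (4.26 and 4.35) and Bcl9 (3.34 and 3.73), coactivators of beta-catenin. Lef1, a TCF/LEF factor, had a peak in neither library.

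Genes that act at the membrane and outside the cell were mixed, as the values in replicate 1 and then replicate 2 show. Porcn (1.26 and 1.68), which attaches the lipid to Wnt proteins, and Wls (0.594 and 0.803), which carries them to the surface, were both open. Of the coreceptors 3 of 6 were open, led by Ror1 (1.96 and 2.39) and Ryk (0.969 and 1.21), and Lrp5 and Ptk7 had a peak in neither library. Of the agonists other than Wnt proteins and the receptors and cofactors listed with them 7 of 11 were open, led by Lgr4 (4.38 and 4.06) and Reck (0.994 and 1.22), while Lgr6 and Rspo1 had a peak in neither library. The ubiquitin ligase genes Znrf3 (2.07 and 2.66) and Rnf43 (1.48 and 2.03), which remove Frizzled from the surface, were both open. Of the other antagonists 4 of 10 were open, led by Kremen1 (1.76 and 1.90) and Frzb (0.424 and 0.541), and Dkkl1 and Draxin had a peak in neither library. Of the planar polarity genes 5 of 7 were open, led by Celsr3 (1.81 and 2.39) and Prickle2 (1.85 and 1.96).

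**Figure D4:**
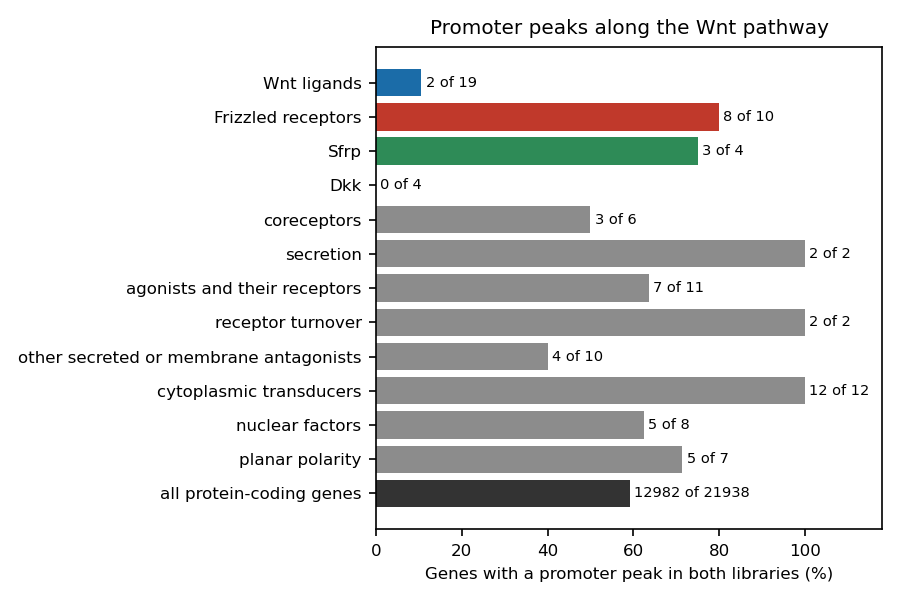
Percent of genes with a promoter peak in both libraries (x axis) for the member families (coloured bars), the other Wnt pathway lists (grey) and all protein-coding genes (black), with the counts beside each bar. Cytoplasmic transducers stand at 12 of 12 and Wnt ligands at 2 of 19.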

How the data were processed

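DNase-seq was measured in 2 libraries of 1 group. The authors deposited for each library, per the labels, 2 peak lists, footprints and false discovery rates on mm10. No source used here names the aligner, the peak caller or the footprint tool. The deposited peak height is a signal of unstated scale, in whole multiples of a step for 100% of peaks within 0.05 of a step. The false discovery rates, deposited as p-value type numbers, list intervals below 0.05, and the deposited footprints carry 0.01 in every row. Reads of an F1 cross were placed on the reference assembly, and what strain differences did to single sites was not tested.

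The larger peak list was used, with the smaller one as the stricter alternative. Genes were those of GENCODE M21, whose starts defined windows of 500 bp each side. A gene's signal was its highest promoter peak. Loci were gene records plus 20 kb. Peaks of both libraries overlapping by at least 1 bp were joined into a shared site, and a site was outside promoters when it touched no protein-coding promoter window. The rule for named genes took all members, the 2 strongest promoters per family not on chromosome 18 for printing, the 10 strongest shared sites outside promoters and, per pathway list, the 2 strongest open genes and the first 2 by alphabet with no peak. A promoter sequence that the rule takes is not reported here. Dvl3 was named after its values were seen. The members and lists were chosen with earlier results of these data known, and no test was run. Whether the pools came from different animals is not given in the labels, so SDs may be partly technical. The overlap counts were tested on simulated intervals. Python 3.11.15, numpy 2.4.6 and pysam 0.24.0 were used. Transfer RNA genes were those of RefSeq on GRCm38.p6, the same assembly.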

Additional observations from a re-analysis of the deposited data

How the results depend on the processing

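Counts of open members moved mainly for ligands. Open Wnt genes numbered 2, but 1 with the stricter list, 6 with windows of 2000 bp, 1 by peak midpoint and 2 to 4 with a library left out, where the 4 came without replicate 2. Open Sfrp and Dkk genes numbered 3, and 1 with the stricter list. Members with a shared site numbered 35 with flanks of 20 kb, against 83.4% of all genes, and 19 with no flanks. The share of all genes with no flanks is not given here, so the fall cannot be set against genes in general. The median number of peaks per member, 3.5, was 2 with the stricter list, 1 with no flanks and 7.5 with flanks of 50 kb. The mean share of locus peaks overlapping the other library, 75.2%, was 55.7% with a reciprocal overlap of 0.5, and that of footprints, 56.1%, was 42.6%. Signal divided by the library median left 12 of 13 members within 1 SD, and the peak nearest to the 5′ end also 12 of 13, with Wnt7a at 0.881 instead of 1.49. That Wnt7a value averages different sites, the upstream peak in replicate 1 (1.33) and the peak at the start in replicate 2 (0.429). The count of 8 Frizzled genes stayed within 1.5 times its value under each alternative tried. No paired analysis was possible because the libraries form a single group. The scale of the signal and the depth are unknown, and with 2 libraries an SD is imprecise.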
